A study of Mus musculus with 6 samples.

Results

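The comparison of naloxone with saline in the brain of NY1DD sickle mice comprised 3 of the 6 arrays of the series, chosen by their labelled strain. NY1DD is a transgenic line that carries human alpha-globin and sickle beta-globin genes on a background that lacks mouse beta-major globin, and it is known as a mild model of sickle cell disease. All mice were males aged 9 weeks. On each two-colour array of mouse brain cDNA probes, total RNA from NY1DD brain taken 10 min after naloxone was labelled with Cy5, and RNA from NY1DD brain taken 10 min after saline with Cy3. The other 3 arrays hold the same pair of treatments in wild-type C57BL/6J mice and serve here as the comparison. The labels give no dose, route or number of animals and do not say whether the arrays come from separate animals, so every p-value measures the spread between arrays. No array had its dyes swapped, so a dye bias and naloxone cannot be told apart in an NY1DD mean. A bias equal in both strains cancels in NY1DD minus C57BL/6J. Each array's title holds an unexplained number; none occurs in both strains, and 1 occurs on 2 wild-type arrays. If it marks a run, strain and run cannot be told apart.

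Naloxone is an antagonist of the mu, delta and kappa opioid receptors, which couple to inhibitory G proteins, lower cyclic AMP, open potassium channels and close calcium channels. It blocks the endogenous peptides cut from proenkephalin, prodynorphin and proopiomelanocortin, and in an animal that has received no opioid it removes only this endogenous tone. Immediate early genes can respond to synaptic activity within minutes, whereas most other transcripts respond over hours. Pain is a leading symptom of sickle cell disease, for which opioids are given.

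A value is a log2 ratio, likely of naloxone over saline, because Cy5 marked the naloxone RNA and Cy3 the saline control. If the ratio was formed the other way, every sign below turns. Every array was shifted to a median of 0, and the median of each well position of the source plates was then subtracted. A feature is a gene (probes with the same symbol averaged) or a single probe without 1 symbol. The 3 NY1DD arrays had 11155, 11232 and 11357 usable probes, and 9685 features were tested, 6146 of them genes. Adjusted p-values are from limma with Benjamini-Hochberg adjustment over all 9685 features, and each standard error (SE) is limma's. The ratios give no level, so the brain label could not be checked against marker levels, and signal over background is unknown. In whole brain RNA, fewer cells of a type and less RNA per cell cannot be told apart.

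No feature passed an adjusted p of 0.05 in NY1DD, 0% of those tested. The smallest adjusted p was 0.415, shared by 24 features. At an unadjusted limma p under 0.05 there were 852 features, 396 positive and 456 negative. Among the genes alone these were 247 positive, 4.02% of genes, and 270 negative, 4.39%. A gene was positive on all 3 arrays in 14.8% of cases (912 genes) and negative on all 3 in 13.9% (855 genes). From the 5th to the 95th percentile, gene means ran from -0.48 to 0.45, and the median SE of a feature was 0.17. After the well correction, 21.8%, 15.4% and 10.3% of probes lay past 1.5-fold on replicates 1 to 3. The Pearson correlation across features was 0.079 for replicates 1 and 2, 0.147 for replicates 1 and 3 and 0.133 for replicates 2 and 3; features are not replicates. Between the strains the correlations ran from -0.057 to 0.167, which overlaps the range within NY1DD.

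The position of a probe in the source plates moved with the ratio. Before correction, well position accounted for 6.62%, 27.0% and 10.99% of the variance on replicates 1 to 3. On replicate 2 the medians of plate columns 6 and 12 were -0.45 and -0.47, and those of the other 10 columns lay between -0.066 and 0.17. Well medians reached -0.97 on replicate 2, against lowest values of -0.33 and -0.45 on replicates 1 and 3. The correction removes a shift but not a spread: afterwards the SD of the ratios on replicate 2 was 0.75 in column 6 and 0.77 in column 12, and 0.35 to 0.60 in the other columns. Plate column 12 holds 8.32% of the probes and column 6 holds 8.35%. Of the genes named below, Pias3, Ikbkb, Aco1, Arid2, Rpl28, Anpep and Grk3 were read from column 6. So was 1 probe each of Pde1c, Calm3 and Sirt1.

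**Figure D1:**
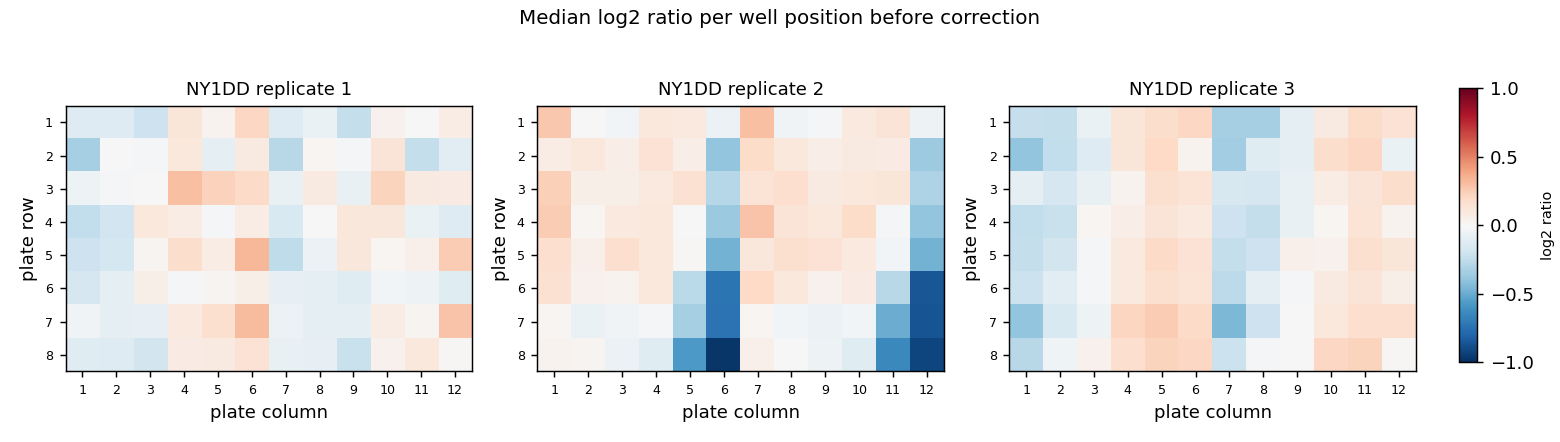
Median log2 ratio (colour) at each of the 96 well positions before correction, by plate row (vertical) and plate column (horizontal), on each NY1DD array. Columns 6 and 12 of replicate 2 had medians of -0.45 and -0.47 and were lowest in the bottom rows.

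The genes with the smallest p among those positive on every NY1DD array had varied roles. Rcbtb2, a protein with RCC1 repeats and a BTB domain, had log2 ratios of 1.41, 1.04 and 1.92 on replicates 1 to 3, a mean of 1.46 (SE 0.19, n = 3, adjusted p = 0.415) or 2.75-fold. Its C57BL/6J arrays read -0.49 and -0.66, with no value on the third, so the strains did not overlap. Its single probe lies in plate column 12. Psmc5, an ATPase of the regulatory particle of the proteasome, had 1.07, 0.75 and 1.08, with a mean of 0.97 (SE 0.15, n = 3, adjusted p = 0.415), against -0.28, 0.28 and -0.059 in C57BL/6J. All NY1DD arrays of Psmc5 lay above all C57BL/6J arrays, and its probe lies in column 8. Ndufs6, a subunit of respiratory complex I, had the most even ratios of this set, 0.51, 0.50 and 0.63 (mean 0.55, SE 0.12, n = 3). Its C57BL/6J arrays read -0.17, 0.13 and -0.061, again without overlap. Eef1d, a subunit of translation elongation factor 1, had 0.62, 0.67 and 0.50 in NY1DD and -0.13, 0.24 and -0.23 in C57BL/6J. Aldoa, a glycolytic aldolase, had 1.40, 0.58 and 0.56 (mean 0.85, SE 0.20, n = 3), and replicate 1 stood well above the other two. Its wild-type arrays of -0.031, -0.11 and -0.46 lay below all of them.

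Some of these genes had positive ratios on wild-type arrays too. Atp2b4, a plasma membrane pump that exports calcium, had 0.76, 0.80 and 0.59 in NY1DD and 0.83, 0.093 and 0.45 in C57BL/6J. The strains overlapped, and the test of NY1DD minus C57BL/6J gave 0.26 (SE 0.23, adjusted p = 0.922). Dnajb11, a chaperone of the endoplasmic reticulum, had 0.95, 1.17 and 1.83 in NY1DD against 1.08, 0.44 and -0.41, where 1 wild-type array lay inside the NY1DD range. Mlip, a lamin-interacting protein, had 1.04, 0.41 and 0.69 in NY1DD, and its wild-type arrays of -0.019, 0.38 and 0.33 lay just below that range. The remaining positive genes were Rasa2, a GTPase-activating protein for Ras (0.76, 0.68 and 1.22, column 12), Nipa1, a magnesium transporter (0.85, 0.59 and 0.54), Pdcd5, a protein linked to cell death (1.52, 0.79 and 0.53), and Disp2, a relative of the Hedgehog release protein Dispatched (0.58, 0.82 and 1.04). For Rasa2, Nipa1, Pdcd5 and Disp2 the wild-type arrays ran from -0.66 to 0.38, below every NY1DD array of the same gene.

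On the negative side, 7 of the 12 leading genes had a probe in plate column 12, against 9.58% of all features. Eri1, an exonuclease that trims histone and ribosomal RNA, had -0.84, -2.07 and -1.72 (mean -1.54, SE 0.23, n = 3, adjusted p = 0.415) and lies in that column. It was negative in wild type too, at -0.75, -0.55 and -0.51, with no overlap between strains. Cysltr1, a receptor for cysteinyl leukotrienes, had -2.04, -1.05 and -2.81 (mean -1.97, SE 0.31, n = 3, adjusted p = 0.415), and its probe also sits in column 12. The wild-type arrays of Cysltr1 were negative as well, at -0.022, -0.73 and -0.34, without overlap. Dennd3, an exchange factor for Rab GTPases, had -1.26, -0.74 and -1.74, again from column 12. The other column 12 genes were Tmem68 (-0.999, -0.72 and -1.19), Sh3pxd2a, an adaptor of podosomes (-0.98, -1.04 and -0.55), Gcdh, a mitochondrial dehydrogenase of lysine breakdown (-0.85, -0.36 and -0.64), and 1 of the probes of Plekha8. Tmem68 and Sh3pxd2a each overlapped at 1 wild-type array, which read -0.90 and -0.552. Dennd3, Gcdh and Plekha8 did not overlap with wild type. The part of the plate position in these values was not tested gene by gene. With column 12 left out, an alternative added after the data were seen, 0 of 9000 features passed and the smallest adjusted p was 0.533.

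The 5 leading negative genes outside column 12 were Lmo3, Ergic2, Igdcc3, Pias3 and Ggnbp2os. Lmo3, a LIM-domain transcription cofactor of the brain, had -1.28, -1.38 and -0.61 (mean -1.09, SE 0.19, n = 3, adjusted p = 0.415), and its wild-type arrays were negative as well, at -0.29, -0.83 and -0.51. The lowest wild-type array of Lmo3 lay within the NY1DD range. Ergic2, which cycles between endoplasmic reticulum and Golgi, had -1.10, -1.30 and -0.53 against 0.13, -0.29 and -0.22, without overlap. Igdcc3, an immunoglobulin superfamily protein, had -1.22, -1.79 and -2.19 against -0.070, -0.20 and 1.33, and its single probe read widely apart among the wild-type arrays. Pias3, a SUMO ligase that restrains STAT3, had -0.99, -0.38 and -0.85 against -0.040, -0.39 and -0.25, with an overlap at 1 array. Its probe lies in column 6. Ggnbp2os, named as antisense to Ggnbp2, had -0.53, -0.86 and -0.66. Which strand its cDNA probes read is not given in the sources used here, so the antisense transcript and its partner cannot be told apart.

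**Figure D2:**
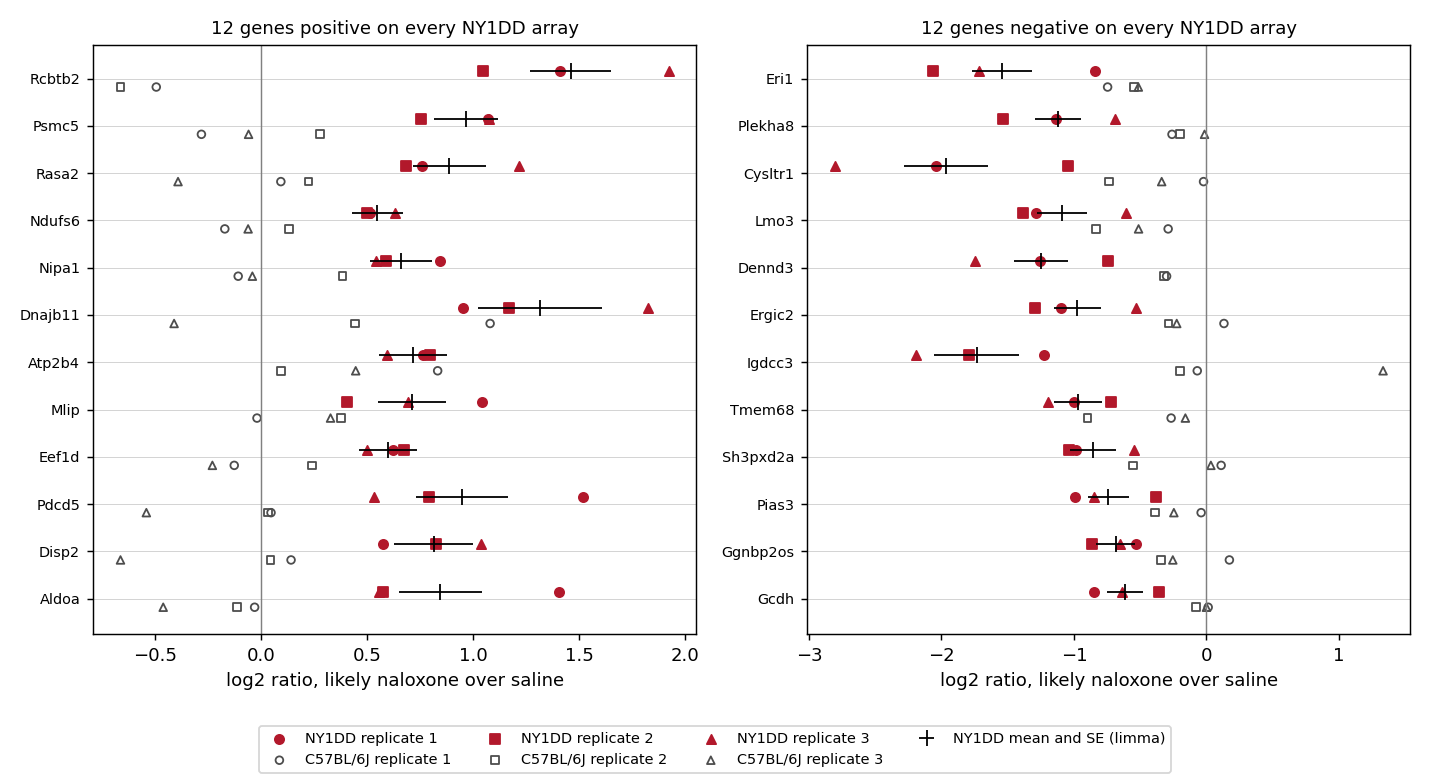
Log2 ratio (horizontal) of the 12 positive and 12 negative genes with the smallest limma p among those of one sign on all NY1DD arrays. Filled symbols are the 3 NY1DD arrays, open symbols the C57BL/6J arrays, and the black mark and line the NY1DD mean and SE (limma); Ndufs6 lies between 0.50 and 0.63 on every NY1DD array.

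A size rule that needs no variance estimate was applied as well. Past 1.5-fold on the same side on all 3 NY1DD arrays were 22 features above 0, 0.227% of those tested, and 29 below 0, 0.299%. Of these, 11 and 19 were genes with 1 symbol. Of these 51 features, 12 also lay on the same side on every C57BL/6J array, 2 passed the size rule there too, and 3 lay on the opposite side on every C57BL/6J array. A probe in column 12 belonged to 36.4% of the 22 and 31% of the 29, against 9.58% of all features. The following examples were picked after their values were seen. Ifitm3, an interferon-induced antiviral membrane protein, had 0.95, 0.81 and 0.76 in NY1DD and -0.26, 0.54 and 0.78 in C57BL/6J, so the strains overlapped at 1 array. Mir124a-1hg, a host transcript of the neuronal miR-124, had 1.05, 2.03 and 0.67 from a column 12 probe. Kcnk10, a two-pore potassium channel, had -1.48, -0.82 and -0.73, and a wild-type array at -1.21 lay inside that range. Gak, a kinase that uncoats clathrin vesicles, had -0.78, -0.77 and -0.60 against -0.047, -0.078 and 0.78, without overlap.

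Genes read by more than 1 probe allowed a check within an array. Among 1030 genes with exactly 2 probes, both probe means had the same sign in NY1DD for 537, or 52.1%. The Pearson correlation of the 2 probes' NY1DD means was 0.023 across these genes, which are not independent replicates. On single arrays it was 0.043, 0.051 and 0.047 in NY1DD and -0.012 to 0.0082 in C57BL/6J. The median absolute difference between the 2 probes of a gene was 0.41, 0.33 and 0.25 on NY1DD replicates 1 to 3.

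**Figure D3:**
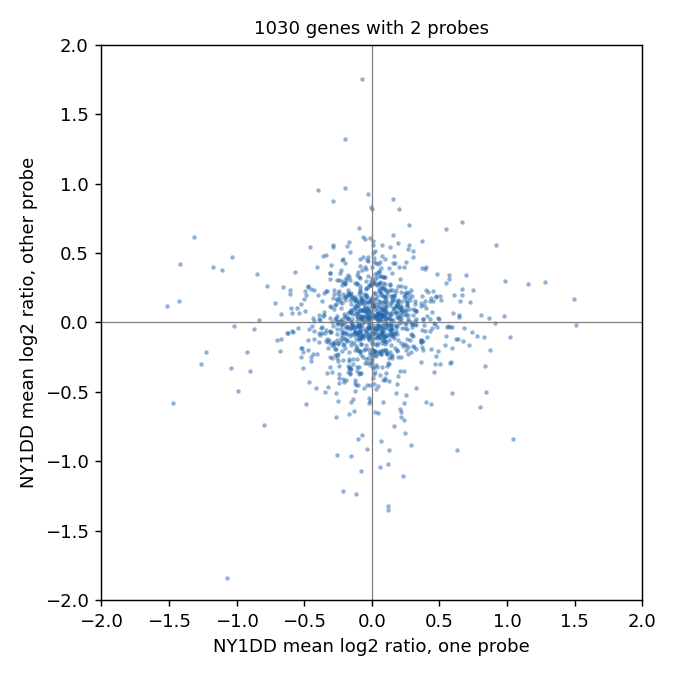
NY1DD mean log2 ratio of one probe (horizontal) against that of the other probe (vertical) for the 1030 genes read by 2 probes, each gene a point. The points form a round cloud about 0, with both signs equal for 52.1% of genes and a Pearson correlation of 0.023.

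Separate probe means all had one sign in NY1DD for 619 of 1311 genes with several probes. The genes below were chosen by that agreement, so it cannot count as support for them. Arhgap39, a GTPase-activating protein that acts at synapses, had 0.81, 0.56 and 0.71, and its probes averaged 0.66 and 0.72. Within arrays the probes disagreed: 1 read 1.61, -0.050 and 0.44, and the other 0.0053, 1.17 and 0.99. The average of the probes was negative on every wild-type array, at -0.31, -0.042 and -0.87, though 1 probe read 0.37 on replicate 2. The difference between strains was 1.10 (SE 0.25, adjusted p = 0.921). Stau2, which carries RNA into dendrites, had 0.50, 0.77 and 0.87, with probe means of 1.16 and 0.27, and was positive in wild type too (0.90, 0.014 and 0.43). Camkk2, the kinase upstream of calcium/calmodulin kinases and AMPK, had 0.35, 0.61 and 0.35, against -0.054, 0.039 and 0.12. Its probe means were 0.73 and 0.14, the higher from column 12, and the lower probe read -0.17 on NY1DD replicate 2. Lmo1, a LIM-domain cofactor, had probe means of 1.50 and 0.17, and the second probe had no value on NY1DD replicate 1 and -0.24 on replicate 3. Ncald, a neuronal calcium sensor, had probe means of 1.74, 0.21 and 0.097, so that 1 of its 3 probes set its gene mean of 0.68.

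Among the negative genes with several probes, Pde1c, a phosphodiesterase activated by calcium and calmodulin, had probe means of -0.79 and -0.74. Its arrays read -0.83, -1.22 and -0.25 in NY1DD and -0.089, -0.30 and -0.084 in C57BL/6J, which overlap at 1 array. Car8, a Purkinje cell protein that binds the inositol trisphosphate receptor, had probe means of -0.47 and -0.43, and its arrays read -0.44, -0.27 and -0.63. Its wild-type arrays were also negative, at -0.21, -0.22 and -0.051. Plekha8, a glycolipid transfer protein, had -1.14, -1.53 and -0.69, with probe means of -1.47 in column 12 and -0.58 in column 5. The probes of Gas1, a Hedgehog co-receptor, averaged -1.38, -0.054 and -1.08, the first of them in column 12. Its gene mean of -0.81 was -0.50 with column 12 left out and -0.054 where a value on all 3 arrays of both strains was required. The probes of Ggnbp2os averaged -1.04 and -0.33. Adjusted p-values of the 10 genes with several probes named here ran from 0.415 to 0.477, and none passed.

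Of the genes nearest to naloxone's target, 15 were measured, and the receptor genes themselves were not among those analysed here. Of the 15, 8 had a positive mean, and the list median was 0.042 beside 0.0036 for all genes. On all NY1DD arrays 4 were positive (26.7%) and 0 negative, beside 14.8% and 13.9% of all genes. At an unadjusted p under 0.05 stood 2 genes, both positive, or 13.3% beside the 4.02% of all genes. Without well medians, or without NY1DD replicate 3, 0 of the 15 had such a limma p, and without replicate 1 there was 1. Penk, the precursor of the enkephalins, had 0.36, 0.21 and 0.80 (mean 0.46, SE 0.16, n = 3, adjusted p = 0.538). All its NY1DD arrays lay above its wild-type arrays of -0.42, -0.070 and -0.035. Both of its probes were positive on each NY1DD array, with means of 0.57 and 0.34. The second probe read 0.0060 on NY1DD replicate 2, below its 0.014 on C57BL/6J replicate 3, so the strains overlapped for that probe. The first did not overlap, though it read 0.17 on C57BL/6J replicate 2. Cpe, a carboxypeptidase that trims prohormones, had 0.45, 0.068 and 0.48 (mean 0.33, SE 0.14, n = 3, adjusted p = 0.558). Its 3 probes disagreed, with means of 0.85, 0.33 and -0.18.

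The other opioid peptide precursors had no common direction. Pdyn, the dynorphin precursor, had -0.50, 0.40 and -0.042, a mean of -0.049 (SE 0.21, n = 3). Pomc, the source of beta-endorphin, spread from -1.03 on replicate 1 to 1.00 and 1.72 on replicates 2 and 3, and as widely in wild type, from -1.34 to 1.45. Genes of peptide handling were as mixed: Pcsk1n, an inhibitor of a prohormone convertase, had 0.67, -0.76 and 0.56, and Scg5, a chaperone of another convertase, had 0.19, -0.090 and -0.55. Anpep, an aminopeptidase that degrades enkephalin, had 0.17, 0.062 and 0.39. Its wild-type arrays read -0.13, 0.23 and 0.17 and overlapped. The receptor regulators lay near 0: the arrestins Arrb1 and Arrb2 had means of -0.049 and -0.0060, the receptor kinase Grk3 -0.094, and the G protein regulators Rgs4 and Rgs14 0.17 and 0.042. The SE of these 5 means ran from 0.12 to 0.27, wider than or close to the means. The opioid growth factor receptor Ogfr and its relative Ogfrl1 had -0.085 and 0.18, and the opioid-binding adhesion protein Opcml -0.011.

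**Figure D4:**
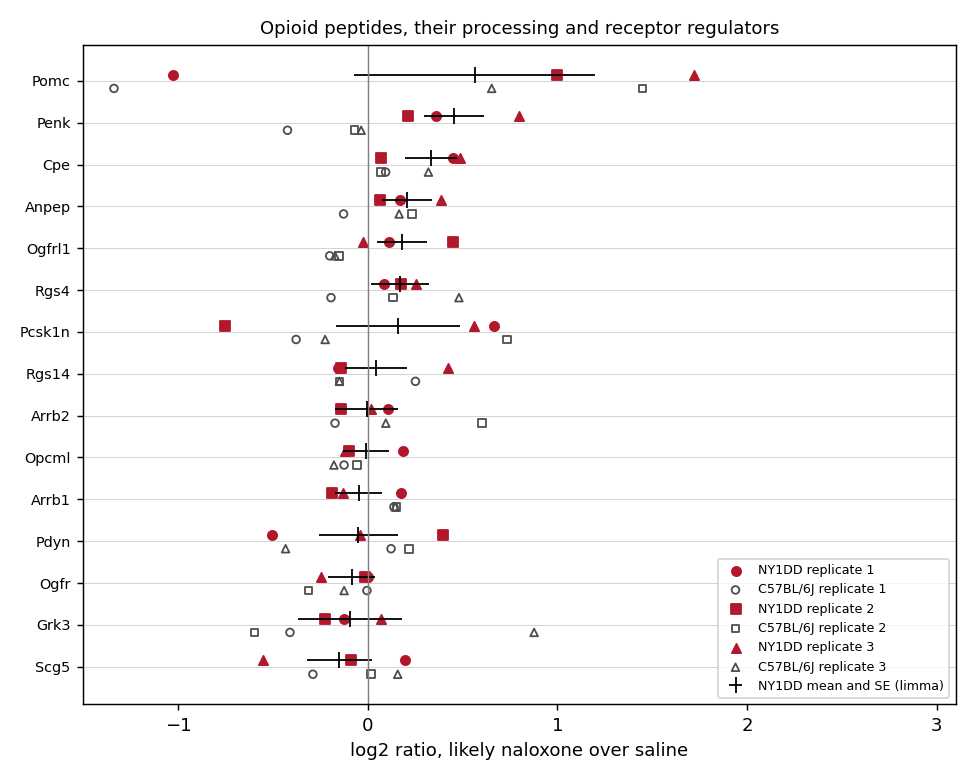
Log2 ratio (horizontal) of the 15 measured opioid-related genes, ordered by NY1DD mean. Filled symbols are NY1DD arrays, open symbols C57BL/6J arrays, and black marks the NY1DD mean and SE (limma); the 3 NY1DD arrays of Penk, from 0.21 to 0.80, lie above its C57BL/6J arrays, whereas Pomc spans from -1.03 to 1.72.

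Immediate early and activity-regulated genes had 10 of 13 means above 0, with a median of 0.11 (array medians 0.049, 0.20 and 0.20), and -0.047 in C57BL/6J. At an unadjusted p under 0.05 stood 3 positive genes and 1 negative gene, 23.1% and 7.69% beside 4.02% and 4.39% of all genes. The positive count was 1 without replicate 1, 2 without replicate 2 and 0 without replicate 3. Bdnf, the activity-dependent neurotrophin, had 0.23, 0.26 and 1.10 (mean 0.53, SE 0.19, n = 3, adjusted p = 0.538), and its wild-type arrays of 0.16, 0.35 and 0.058 reached into that range. Sgk1, a kinase induced by glucocorticoids and activity, had 0.38, 0.65 and 0.38 from a column 12 probe, beside 0.39, 0.38 and -0.31. Rheb, the GTPase that turns on mTORC1, had -0.31, -1.05 and -0.15, and was negative on each wild-type array as well. The list median was 0.066 without replicate 2 and 0.30 without replicate 1.

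Intracellular signalling downstream of G proteins gave single genes on both sides. Of 48 G protein, cyclase and cAMP genes, 11 were positive and 2 negative on all NY1DD arrays, beside 14.8% and 13.9% of all genes, and the median was 0.028. At an unadjusted p under 0.05 stood 4 positive (8.33%) and 3 negative (6.25%), and with 1 NY1DD array left out 2 to 3 and 1 to 4. Rgs7, a regulator that speeds the turn-off of inhibitory G proteins in neurons, had 0.49, 0.30 and 0.69 (mean 0.50, SE 0.15, n = 3, adjusted p = 0.517). In wild type it read -0.49, -0.80 and -0.23, so every array of one strain lay on the opposite side of 0 from every array of the other. Its probes averaged 0.37 and 0.58 in NY1DD and -0.59 and -0.36 in C57BL/6J. Each probe was positive on 1 wild-type array, at 0.032 and 0.22, so the split of signs holds for the averaged probes only. NY1DD replicate 1 and C57BL/6J replicate 2 rest on 1 probe each. Pde4b, a cAMP phosphodiesterase, had 0.33, 0.85 and 0.51, beside 0.52, 0.079 and 0.45, which overlap. Akap12, an anchor for protein kinase A, had -1.13, -0.60 and -1.505 from a column 12 probe, and a wild-type array at -1.36 lay within that range. Of 36 MAP kinase and calcium kinase genes, 8 were positive and 0 negative on all NY1DD arrays, and 4, all positive, had an unadjusted p under 0.05 (11.1% beside 4.02%). Without NY1DD replicate 1, or without replicate 2, 1 of the 36 was positive at that p, and without well medians 2. The list had 20 of 36 means above 0 and a median of 0.0027, and without replicate 2 it had 28 of 36 and 0.10. Camk2a, a main kinase of the synapse, had 0.40, 0.60 and 0.56 against 0.43, -0.45 and -0.54, and Calm3, a calmodulin gene, had 0.68, 0.44 and 0.096 against 0.089, 0.27 and -0.24.

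Gene lists of transmitter systems had medians close to 0 with all arrays. The median was -0.0075 for 28 glutamate genes, -0.019 for 13 GABA and glycine genes, 0.030 for 13 monoamine and acetylcholine genes and 0.021 for 15 neuropeptide genes. The GABA and glycine list had array medians of -0.14, 0.17 and 0.014, and its median was -0.16 without replicate 2 and 0.12 without replicate 1. The monoamine and acetylcholine list had a median of -0.16 without replicate 2. None of the 28 glutamate genes had an unadjusted p under 0.05 in limma, and 0 passed. Gad1, which makes GABA, had -0.69, 0.17 and -0.93, beside wild-type arrays of -0.57, -1.29 and -1.13. Grm4, a presynaptic glutamate receptor, had -1.27, 0.34 and -1.41. Chrna4, a nicotinic receptor subunit, had -0.13, -0.86 and -0.63 from a column 12 probe (mean -0.54, SE 0.18, n = 3). Chga, a granin of dense-core vesicles, had -0.32, -0.50 and -0.081, and was negative on each wild-type array. Among 55 genes of synaptic vesicles and release, 37 means were positive (median 0.093), and in C57BL/6J also 37 of 55 (median 0.048). Synpr, a vesicle membrane protein, had 0.45, 0.98 and 0.25, and Syn1, which tethers vesicles to actin, had 1.41, -0.097 and 1.96. Of 30 channel genes, 3 were positive (10%) and 4 negative (13.3%) on all arrays, beside 14.8% and 13.9% of all genes. The background potassium channels Kcnk3 and Kcnk2, both in column 12, had means of -0.92 and 0.48. The list of 9 pain-related genes had Cysltr1 as its only gene with an unadjusted p under 0.05.

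Markers of cell types were tabulated to see whether a cell class moved as a whole. Microglia and macrophage markers had 8 of 11 means positive and 5 of 11 positive on all NY1DD arrays, beside 14.8% of all genes. Their array medians were 0.24, 0.14 and 0.30 in NY1DD and -0.15, 0.13 and -0.00035 in C57BL/6J, so each NY1DD array lay above each wild-type array. Laptm5, a lysosomal protein of immune cells, had 0.43, 0.56 and 0.31 (mean 0.43, SE 0.12, n = 3, adjusted p = 0.473), and Fcer1g, an Fc receptor chain, had 0.25, 0.48 and 0.20. Tmem119, a defining marker of resident microglia, went the other way, with -1.10, -0.61 and -0.19 (mean -0.63, SE 0.18, n = 3, adjusted p = 0.501). The markers of this class therefore did not share a sign. Astrocyte markers had 20 of 28 means below 0 (median -0.088; array medians 0.076, -0.091 and -0.080), but only 5 were negative on all arrays and 3 positive. Aldoc, an aldolase of astrocytes, had 0.38, 1.18 and 0.0049, and Ndrg2 -0.34, -0.20 and -0.38.

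The other cell classes had medians closer to 0, except choroid plexus and ependyma. Endothelial and mural markers had 6 of 30 genes positive (20%) and 0 negative on all arrays, beside 14.8% and 13.9% of all genes. Their median was 0.034, with 20 means positive and 10 negative, the lowest at -1.87 and the highest at 0.58. Myl9, a myosin light chain of smooth muscle, had 0.31, 0.50 and 0.93, and Ly6c1, an endothelial surface protein, had 0.41, 0.24 and 0.78. Both overlapped their wild-type arrays. Oligodendrocyte and myelin markers had a median of 0.041 over 29 genes, and none had an unadjusted p under 0.05 in limma or passed. Neuron structure and calcium sensor genes had a median of 0.057 over 43 genes. Of these, 26 means were positive (60.5%, beside 50.7% of all genes) and 17 negative, and they ran from -1.96 to 0.68. Among them Rtn1 had 0.67, 0.17 and 0.39 and Thy1, a neuronal surface protein, 0.68, 0.55 and 0.37. Rtn1 and Thy1 both overlapped their wild-type arrays. Choroid plexus and ependyma markers had a median of -0.098 over 10 genes, and of -0.16 in C57BL/6J. Of these genes, 4 were negative and 1 positive on all NY1DD arrays, beside 13.9% and 14.8% of all genes. Slc4a5, a bicarbonate transporter, had -0.60, -0.29 and -1.35, and Folr1, a folate receptor, had 0.67, 1.11 and 0.34, both in column 12. Only 5 blood and red cell markers were measured, and none had one sign on all NY1DD arrays. Hba-a2, a mouse alpha-globin gene, had 0.49, -0.75 and -0.39. The alpha-globin genes are near-identical copies that a cDNA probe cannot separate.

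Gene groups tied to sickle cell disease gave opposite signs within each group. Of 30 haem, iron and oxidative stress genes, 5 were positive (16.7%) and 7 negative (23.3%) on all NY1DD arrays, beside 14.8% and 13.9% of all genes. Their median was -0.0091. Ftl1, the ferritin light chain that stores iron, had very even ratios of 0.49, 0.42 and 0.40 (mean 0.44, SE 0.12, n = 3, adjusted p = 0.465). Its wild-type arrays were positive but lower, at 0.31, 0.25 and 0.073, and its probe lies in column 12. Ferritin light chain has many processed pseudogenes, which share sequence with the probe. Aco1, the cytosolic aconitase that binds iron-responsive elements, had -0.37, -0.26 and -0.67 against -0.026, 0.13 and 0.69, without overlap. Nqo2, a quinone reductase, had 0.84, 0.54 and 0.095. Of 18 inflammation and NF-kappaB genes, 4 had an unadjusted p under 0.05 on the negative side, or 22.2% beside 4.39% of all genes, and 1 on the positive side. The negative count was 3 with any 1 NY1DD array left out and 5 without well medians. Ikbkb, the kinase that releases NF-kappaB, had -1.08, -2.002 and -0.49 (mean -1.19, SE 0.28, n = 3, adjusted p = 0.454), where a wild-type array at -0.72 fell within the range. Its probe lies in column 6, and the part of the plate position was not tested. Stat5b and Stat3, transcription factors of cytokine receptors, had -0.33, -0.51 and -0.30 and -0.41, -0.10 and -0.74. The list median of -0.085 was below 0 under each of the 16 alternatives that give one. In C57BL/6J the median of this list was -0.058, and 8 of 18 means were positive in each strain. Hypoxia response genes had a median of 0.039 over 13, with Aldoa at its head.

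Ribosomal and proteasome genes leaned to positive ratios. Cytosolic ribosomal proteins were positive on all NY1DD arrays for 19 of 41 genes (46.3%) and negative for 2, beside 14.8% and 13.9% of all genes. At an unadjusted limma p under 0.05 stood 5 positive (12.2%) and 1 negative (2.44%), beside 4.02% and 4.39% of all genes, and 0 passed. With 1 NY1DD array left out, 2 to 3 were positive at that p (4.88% to 7.32%), beside 3.06% to 4.65% of all genes. Their array medians were 0.44, 0.059 and 0.12 in NY1DD and -0.17, 0.10 and -0.0093 in C57BL/6J, so 1 wild-type array lay above the lowest NY1DD array. Replicate 1 carried most of the size: the list median was 0.20 with all arrays and 0.11 without it. Rplp1, an acidic stalk protein of the large subunit, had 0.43, 0.49 and 0.31 (mean 0.41, SE 0.11, n = 3, adjusted p = 0.471) against -0.12, -0.021 and -0.0093, from column 12. Rps2 had 0.69, 0.022 and 0.60 against 0.44, 0.26 and 0.28, and Rpl28 had 0.80, 0.16 and 0.40 against 0.44, 0.065 and -0.061, both with overlap. Ribosomal protein genes have many processed pseudogenes, so their probes may read more than 1 locus.

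Proteasome genes were positive on all NY1DD arrays for 15 of 32 (46.9%) and negative for 2, beside 14.8% and 13.9% of all genes. Their array medians were 0.24, 0.025 and 0.094, and those of C57BL/6J -0.068, 0.055 and 0.058, which overlap. Besides Psmc5, Psmc3, another ATPase of the regulatory particle, had 0.79, 0.69 and 0.078, and Psmb10, a catalytic subunit of the immunoproteasome, had 0.82, 0.31 and 0.47. The lean of this list depended on the position correction. Without it the median was 0.048 in place of 0.17 and 6 of 32 were positive on all arrays, and for the ribosomal list 0.12 and 11 of 41. With column 12 left out the proteasome had 11 of 27 and the ribosomal list 16 of 39.

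Promoters are shown for the leading members of these lists with a single entry in the RefSeq promoter table (GRCm38.p6), the 250 bases before the start, 5′ to 3′, all on the plus strand. They are Rps2 at chr17:24719813-24720062, Rpl28 at chr7:4792715-4792964 and Psmc5 at chr11:106255935-106256184. Capitals mark CTTCCG or its reverse CGGAAG, a form of the sites bound by ETS factors. Other forms of these sites were not marked or counted.
Rps2: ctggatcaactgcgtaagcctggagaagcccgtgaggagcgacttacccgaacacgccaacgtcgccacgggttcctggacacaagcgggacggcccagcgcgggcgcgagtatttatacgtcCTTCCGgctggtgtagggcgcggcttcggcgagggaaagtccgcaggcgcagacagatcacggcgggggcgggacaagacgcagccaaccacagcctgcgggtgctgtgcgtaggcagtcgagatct
Rpl28: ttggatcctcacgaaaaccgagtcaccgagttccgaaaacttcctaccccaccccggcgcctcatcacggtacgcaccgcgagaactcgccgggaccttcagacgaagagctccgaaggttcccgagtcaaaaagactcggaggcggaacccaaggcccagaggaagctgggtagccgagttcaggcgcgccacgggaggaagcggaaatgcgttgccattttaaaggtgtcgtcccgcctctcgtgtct
Psmc5: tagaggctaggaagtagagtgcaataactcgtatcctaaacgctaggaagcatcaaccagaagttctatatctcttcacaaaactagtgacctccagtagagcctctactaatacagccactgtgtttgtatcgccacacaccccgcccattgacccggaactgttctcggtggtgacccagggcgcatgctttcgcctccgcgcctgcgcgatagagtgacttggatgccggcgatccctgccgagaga
CTTCCG or its reverse was found once in Rps2 and not in the windows of Rpl28 and Psmc5. It occurred in 13.6% of all 32851 promoters of this length and in 28.2% of the 5011 measured genes with an entry. The first share counts promoters, whereas the second and the list counts below count genes with CTTCCG or its reverse in any of their promoters. Of the ribosomal genes 20 of 33 held it, and of the proteasome genes 13 of 27. Members positive on all NY1DD arrays held it in 7 of 13 ribosomal and 5 of 11 proteasome genes, and the other members in 13 of 20 and 8 of 16. CTTCCG was chosen with the counts of 2 further motifs, TGACG and TGACNNNGC, in view, neither of which occurred in these 3 windows. TGACG and its reverse overlap matches of TGACNNNGC where the bases allow. They were found on either strand in 17.8% and 10.2% of all promoters.

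Energy metabolism rested on 1 array. Glycolysis and TCA cycle genes had 27 of 38 means positive and a median of 0.15, but array medians of 0.32, -0.010 and -0.0080. Oxidative phosphorylation genes had 44 of 62 positive, with array medians of 0.23, 0.014 and 0.0069. Without replicate 1 these medians were -0.021 and 0.022. Atpif1, the inhibitor of the mitochondrial ATP synthase, had 0.67, 0.18 and 0.29, and Cox5a, a cytochrome oxidase subunit, had -0.29, -0.58 and -0.24. Eno2, the neuronal enolase read by 4 probes, had 0.42, 0.32 and 0.12.

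RNA and chromatin groups had medians near that of all genes. Translation factors had a median of 0.046 over 39 genes, splicing factors and RNA-binding proteins 0.025 over 62, heat shock proteins and chaperones 0.046 over 60, and histones and chromatin 0.013 over 50. Eif2b2, a subunit of the exchange factor for eIF2, had -0.98, -0.033 and -0.50, beside wild-type arrays of -0.70, -0.70 and -1.17. Sf3a1, a spliceosome subunit, had 1.07, 0.63 and 0.17 against -0.18, -0.086 and 0.24, and Srsf1, read by 3 probes, had -0.66, -0.18 and -0.34. Among chromatin genes, 5 of 50 had an unadjusted p under 0.05 on the negative side (10%, beside 4.39%) and 0 on the positive side. The negative count was 3, 2 and 3 without replicates 1, 2 and 3, and 3 without well medians. Sirt1, a deacetylase, had -1.23, -4.33 and -0.44, and only 1 of its 2 probes had a value on replicate 2. On replicates 1 and 3 that probe read -1.22 and 0.035, and the other probe, in column 6, read -1.235 and -0.91. Arid1b and Arid2, subunits of chromatin remodelling complexes, had -0.31, -1.16 and -0.40 and -0.17, -0.63 and -0.49.

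**Figure D5:**
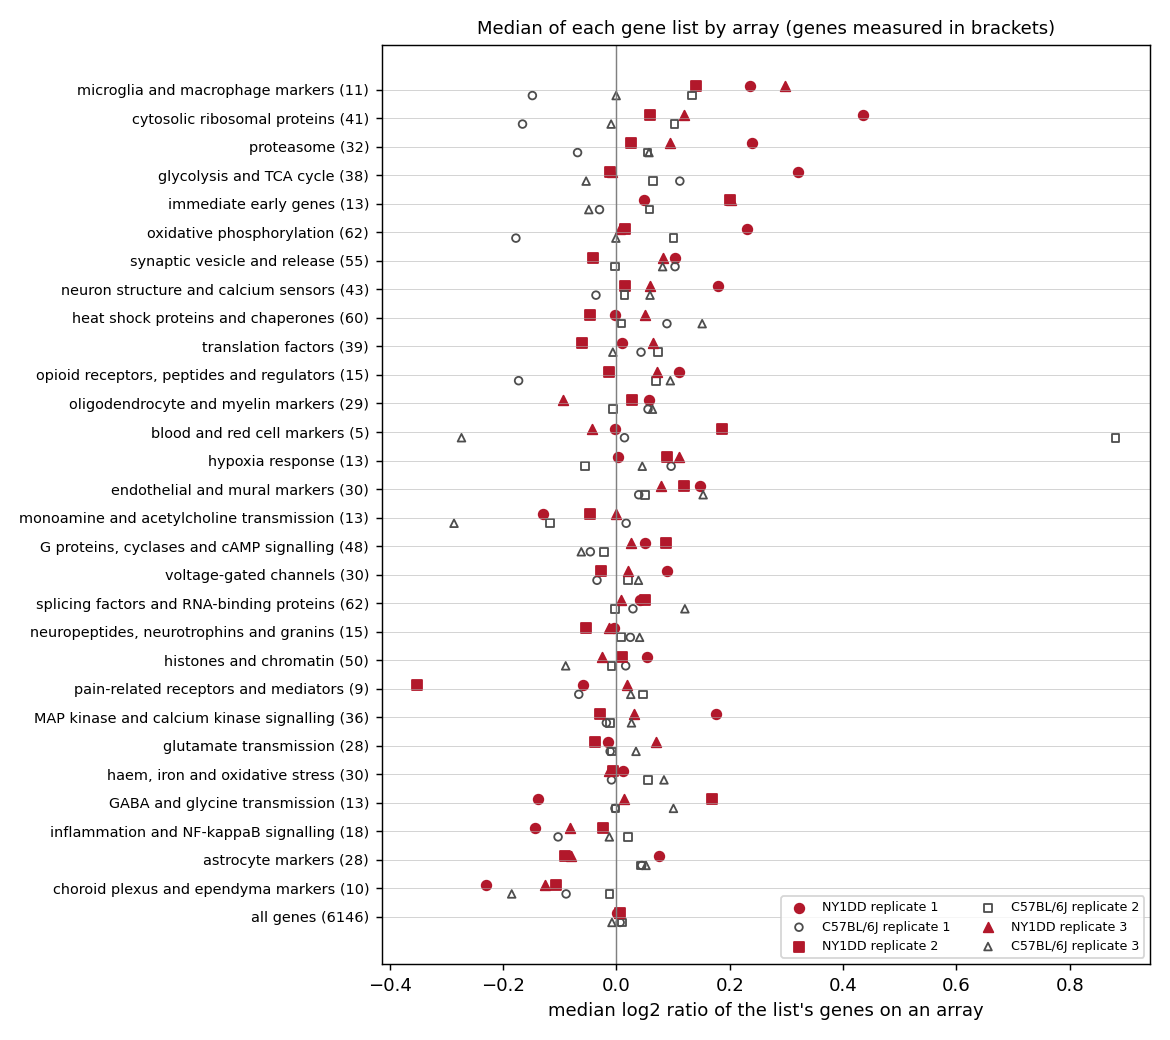
Median log2 ratio (horizontal) of each gene list on each array, lists ordered by NY1DD median with all genes at the foot. Filled symbols are NY1DD arrays and open symbols C57BL/6J arrays; ribosomal proteins reach 0.44 on NY1DD replicate 1 against 0.059 on replicate 2, and microglia markers lie at 0.14 or above on every NY1DD array.

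The difference between the strains, in which a dye bias equal in both strains cancels, gave no feature past an adjusted p of 0.05, 0% of those tested. The smallest adjusted p was 0.921, and 502 features had an unadjusted limma p under 0.05. Among genes measured on all 6 arrays with the smallest p, Rgs7 and Psmc5 differed by 1.01 (SE 0.21) and 0.99 (SE 0.21). The predicted gene 1700030K09Rik had 0.066, 0.65 and 0.68 in NY1DD and -0.54, -0.72 and -0.87 in C57BL/6J, a difference of 1.17 (SE 0.23). Ntn3, a netrin, had 0.69, 0.89 and 0.52 in NY1DD and -0.19, -0.29 and -0.90 in C57BL/6J. On the other side, Mgat5, which branches the sugar chains of glycoproteins, had -0.56, -0.81 and -0.38 in NY1DD and 0.39, 0.32 and 0.18 in C57BL/6J. Lrp12, a lipoprotein receptor relative, had -0.63, -0.057 and -0.80 in NY1DD against 0.80, 0.42 and 0.99. For Rgs7, 1700030K09Rik, Ntn3, Mgat5 and Lrp12, each array of NY1DD lay on one side of 0 and each of C57BL/6J on the other. For Rgs7 this held for the average of its probes and not for each probe. Map10, a microtubule protein, differed by -0.79 (SE 0.18) because of its wild-type ratios of 0.72, 1.00 and 1.12, while its NY1DD arrays read 0.098, 0.29 and 0.079. Igdcc3 differed by -2.09 (SE 0.45), the largest of these 8 genes. The difference was positive for 36 of 41 ribosomal genes (median 0.16) and for 25 of 32 proteasome genes (median 0.13), beside 3083 of all 6146 genes.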

How the data were processed

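Each deposited value is the natural log (ln) of a probe's ratio between channels; the base was read from the values, and how the authors normalised, corrected and filtered spots was not given in the sources used here. Values at the lower limit, a ratio of 0.01 (125 in NY1DD), were set to missing. Ratios were converted to log2, centred on each array's median, and freed of the median of each of 96 well positions, read from the probe names. A probe needed values on at least 2 arrays of each strain. Of 11502 probes, 7906 carried a single gene symbol in the array annotation, and 7894 were matched to RefSeq by gene number. The 6 arrays were fitted with 1 mean per strain in limma 3.58.1 (R 4.3.3; 4 residual degrees of freedom), two-sided, with Benjamini-Hochberg adjustment and a threshold of 0.05, and was tested on simulated data.

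Named genes were, in NY1DD, up to 12 per side by p among those of one sign on all arrays and up to 5 per side with several probes whose means had one sign. Added to these were all opioid-related genes, up to 3 per other list, and up to 4 per side for the strain difference. The members and the 29 lists were chosen with earlier results of these data known. Correlations of same-numbered deviations between strains were -0.076, 0.048 and 0.029, so replicate numbers were not taken as pairs. Alternatives covered position correction, lower limit, scaling, missing values, probe averaging, the fit and each array left out.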

Additional observations from a re-analysis of the deposited data

How the results depend on the processing

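The count of 0 features past an adjusted p of 0.05 in NY1DD held under 18 alternatives, 2 of them chosen after seeing the data, with a smallest adjusted p from 0.0563 (without NY1DD replicate 3) to 0.634 (NY1DD arrays alone). For NY1DD minus C57BL/6J it held under 17, with 0.227 to 0.981. Features with an unadjusted p under 0.05 numbered 626 to 983. With the replicate block the smallest adjusted p was 0.473 in NY1DD and 0.839 for the difference, and the block changed no call; the numbers do not pair the arrays. The size rule gave 51 to 264 features with 1 array of either strain left out, the higher counts where only 2 NY1DD arrays need pass, and 34 with plate column 12 left out. Of the opioid-related and blood genes, 10 turned sign; the cause was not tested. Without well medians Pdyn had 0.026 and Rgs14 -0.051; with row and column medians Pdyn had 0.040; with the lower limit kept Opcml had 0.0026. With plate medians subtracted Arrb1, Arrb2, Opcml and Pdyn had 0.035, 0.013, 0.00080 and 0.0053. With 1 array left out the mean ran from -0.16 to 0.020 for Arrb1, -0.062 to 0.061 for Arrb2, -0.11 to 0.042 for Opcml, -0.096 to 0.62 for Pcsk1n, -0.27 to 0.18 for Pdyn, -0.015 to 1.36 for Pomc, -0.15 to 0.14 for Rgs14, -0.32 to 0.052 for Scg5, -0.57 to 0.043 for Bpgm and -0.57 to 0.051 for Hba-a2. The other genes named by the rule kept their sign. With 3 arrays, no dye swap and no channel intensities, precision rests on the array spread alone.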

Other observations

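Spots without 1 gene symbol lay outside the gene comparisons. Of 358 features whose probe names start with SSH, 13 had an unadjusted limma p under 0.05 on the positive side and 8 on the negative side in NY1DD, 3.63% and 2.23%, and 0 passed the size rule. Their SD was 0.59, 0.70 and 0.40 on NY1DD replicates 1 to 3, against 0.53, 0.46 and 0.44 for genes. Of 3181 other features without 1 symbol, 136 were positive and 178 negative at that p, 4.28% and 5.60%. The size rule held below 0 for 10 of these 3181 in NY1DD and for 52 in C57BL/6J.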
